A study of Mus musculus with 34 samples.

Results

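Imprinted genes are genes of which mainly or only the copy inherited from 1 parent is transcribed. The 36 imprinted genes described here were chosen by symbol from the gene names of the deposited tables and grouped by the parental copy that is known to be active in the mouse. The group comprised 20 paternally expressed genes, 15 maternally expressed genes and Gnas, whose promoters differ in parental expression. All 36 were listed among the 46785 genes of the embryo section tables, and 35 among the 37145 genes of the culture tables. Kcnq1ot1 was analysed in the sections only.

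Most imprinted genes lie in clusters in which a stretch of DNA methylated on 1 parental copy, set in the egg or the sperm, decides which copy is transcribed. ZFP57 and TRIM28 are known to protect these marks through the wave of demethylation after fertilisation, and long noncoding RNAs such as Airn and Kcnq1ot1 silence neighbouring genes in cis. Many of the proteins act on growth, with paternally expressed genes such as Igf2 promoting it and maternally expressed genes such as Igf2r, Cdkn1c, Grb10 and Phlda2 restraining it. Several have their best known roles in the placenta and other tissues outside the embryo proper. The expression values used here do not separate the parental copies, so they show how much RNA a gene gave and not which copy gave it.

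The series examined Evx1as, a long noncoding RNA that lies next to the homeobox gene Evx1, in differentiating embryonic stem cells and in gastrulating mouse embryos. The 3 KI cultures came from embryonic stem cells labelled 4x polyA KI, of strain 129S1/SVImJ, taken on day 4 after withdrawal of leukemia inhibitory factor (LIF), the cytokine that keeps such cells undifferentiated. The 3 WT cultures came from the wild-type line CJ9 of the same strain and were treated in the same way. The labels do not say where the polyA cassette was inserted or whether several clones were used, so differences between KI and WT cultures are differences between these lines. The sections were laser-captured pieces of C57/B6 embryos of embryonic day 7, and their RNA was profiled by Geo-seq, a method for small numbers of captured cells. Homozygous Evx1as-/- sections were 5 of the primitive streak, from layers 1, 5, 7, 9 and 11, with 5 of the mesoderm, from layers 3, 5, 7, 9 and 11, and 1 of the anterior side, from layers 4 to 6. Heterozygous Evx1as+/- sections were 6 of the streak, from layers 1, 3, 5, 7, 9 and 11, with 3 of the mesoderm, from layers 7, 9 and 11, and 1 of the anterior side, from layers 4 to 6. There were no wild-type sections, so both section genotypes carried at least 1 mutant allele. The labels do not say in which direction the layers were numbered, nor how many embryos were cut. Sections of 1 genotype may therefore share an embryo, and p-values over sections are then too small. A further 3 sections carried labels that contradict each other on region or layer and were kept out of the main comparisons.

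Values were FPKM, fragments scaled by transcript length and by the mapped fragments of the library, so levels can be set side by side between genes. The FPKM summed to 502990 to 582184 per culture, with 12758 to 13073 genes at 1 FPKM or more, and to 132929 to 376860 per section, with 6806 to 10959 such genes. Read depth is not known. The Evx1as+/- streak section of layer 11 stood apart, with the fewest genes at 1 FPKM or more (6806) and 14 of the 36 imprinted genes listed at 0, against 4 to 10 in the other sections. Next lowest was the Evx1as+/- mesoderm section of layer 11, with 7025 such genes and the lowest FPKM sum (132929). Both sections form the Evx1as+/- layer 11 pair of the mesoderm and streak comparison below. Evx1as itself had 0.0674 to 0.137 FPKM in KI cultures, against 3.94 to 5.99 FPKM in WT cultures. It was listed at 0 in 5 of 5 Evx1as-/- mesoderm sections and in 3 of 5 Evx1as-/- streak sections, with a highest value of 0.159 FPKM, whereas in Evx1as+/- streak sections it had 0 to 4.57 FPKM. The primitive streak marker list (8 genes, T and Mixl1 among them) summed to 250 to 465 FPKM in Evx1as-/- and 284 to 479 FPKM in Evx1as+/- streak sections. It summed to 78.3 to 138 FPKM in Evx1as-/- and 19.3 to 46.5 FPKM in Evx1as+/- mesoderm, and to 4.61 FPKM in the Evx1as-/- and 11.3 FPKM in the Evx1as+/- anterior section. The nascent mesoderm list (8 genes, Mesp1 and Tbx6 among them) did not separate the regions in the same way, at 39.5 to 163 FPKM in Evx1as-/- and 37.5 to 144 FPKM in Evx1as+/- mesoderm, against 6.68 to 143 FPKM in Evx1as-/- and 16.2 to 177 FPKM in Evx1as+/- streak.

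Several imprinted genes had RNA in both materials, and a few were near 0 in every section. Phlda2, a small pleckstrin-homology protein known to limit placental growth, had the highest level in the sections, with a median of 88.9 FPKM over the 24 sections and a range of 4.27 to 1341 FPKM. Nnat, which encodes the small membrane protein neuronatin, followed with a median of 34.0 FPKM (range 4.16 to 208), and the zinc finger gene Peg3 with a median of 17.0 FPKM (range 3.69 to 36.1). Grb10, an adaptor that dampens insulin and insulin-like growth factor signalling, varied little in the sections, from 5.40 to 18.6 FPKM. Peg10, a retrotransposon-derived gene needed in the placenta, was by contrast at most 0.669 FPKM in any section. Plagl1, a zinc finger transcription factor gene, reached at most 0.186 FPKM and was listed at 0 in 20 of 24 sections. Dlk1, a Notch ligand-like gene, reached at most 0.555 FPKM there, and Ascl2, a transcription factor gene of the trophoblast, at most 0.496 FPKM. In WT cultures the same 4 genes averaged 372 ± 49.7 FPKM for Peg10, 23.2 ± 2.64 FPKM for Plagl1, 20.6 ± 5.55 FPKM for Dlk1 and 1.76 ± 0.536 FPKM for Ascl2 (SD, n = 3 each). Asb4, which encodes an ankyrin repeat and SOCS box protein, showed the opposite, at 0.159 to 26.6 FPKM in the sections and at most 0.451 FPKM in any culture. Cultures and sections came from different tables and different protocols, so these levels are given side by side without a test.

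**Figure D1:**
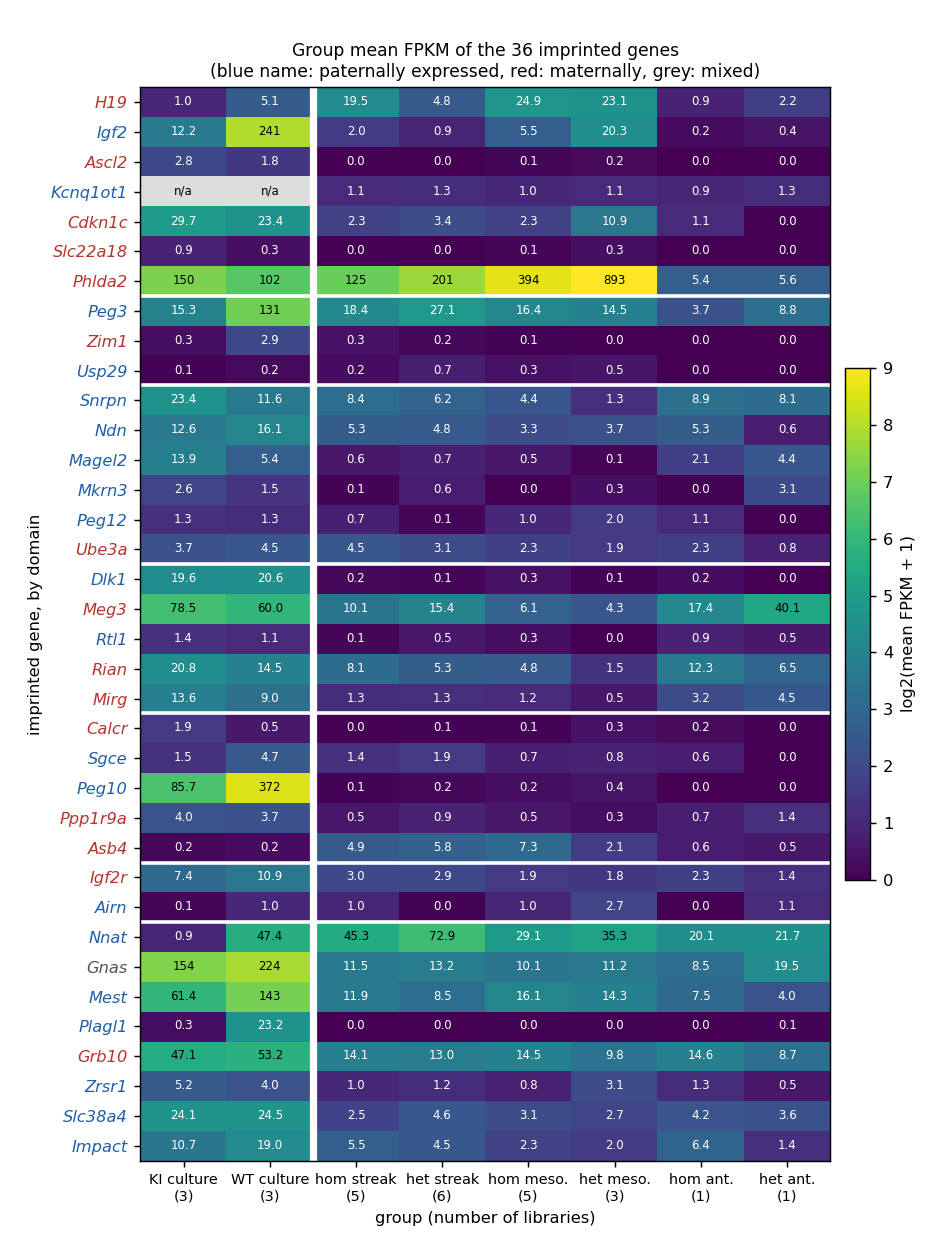
Group mean FPKM of the 36 imprinted genes in 8 groups, printed in each cell and coloured on a log2(mean FPKM + 1) scale, with genes ordered by domain and the number of libraries in brackets. Peg10 and Plagl1 were above 20 FPKM in WT cultures and below 1 FPKM in every section group, and Phlda2 was the highest gene of the streak and mesoderm groups.

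In the KI cultures, 9 of the 31 imprinted genes that averaged 1 FPKM or more were lower than in WT cultures and 5 were higher. The test was limma's moderated test on log2(FPKM + 1) with p-values adjusted by the Benjamini-Hochberg method over all 13133 genes tested and a threshold of 0.05, and fold changes on this scale understate the change of low genes. Of all genes tested, 16.2% were lower and 16.2% were higher. Nnat, Plagl1 and Zim1 averaged under 1 FPKM in KI cultures and Calcr under 1 FPKM in WT cultures, so these 4 genes entered the test through the group in which they were high, and the counts of members are not read as support. With no filter on low values the 4 genes passed as well, and 3 members were higher and 8 lower of 35. Among the paternally expressed genes 7 were lower and 2 higher of 17 tested, with a median log2 change of -0.34. Among the maternally expressed genes 1 was lower and 3 were higher of 13 tested, with a median of 0.34, and Gnas was lower. The median over all genes was 0.02. The p-values measure the spread between cultures of these lines.

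The paternally expressed genes with the largest decreases were Nnat, Plagl1, Igf2, Peg3 and Peg10. Nnat had 0.488, 1.07 and 1.22 FPKM in the 3 KI cultures, against 58.8, 41.5 and 41.9 FPKM in the 3 WT cultures, a log2 change of -4.65 ± 0.21 (SE, limma adjusted p = 6.74e-05). Plagl1 had 0.421, 0.344 and 0.00537 FPKM in KI cultures, against 23.3, 25.7 and 20.5 FPKM in WT cultures (log2 change -4.28 ± 0.19, limma adjusted p = 6.74e-05). Both genes were thus below 2 FPKM in every KI culture and above 20 FPKM in every WT culture. Igf2, the fetal insulin-like growth factor, had 9.37, 11.3 and 15.9 FPKM in KI cultures, against 289, 302 and 132 FPKM in WT cultures (log2 change -4.14 ± 0.33, limma adjusted p = 0.000287). The third WT culture was the lowest of the WT cultures for Igf2 but was still far above every KI culture. Peg3 had 12.7, 13.7 and 19.5 FPKM in KI cultures, against 145, 142 and 106 FPKM in WT cultures (log2 change -3.02 ± 0.19, limma adjusted p = 0.000134). Peg10 had 66.4, 77.8 and 113 FPKM in KI cultures, against 416, 380 and 318 FPKM in WT cultures (log2 change -2.13 ± 0.20, limma adjusted p = 0.000489). For Peg3 and Peg10 the highest KI culture was below the lowest WT culture.

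Neighbours of these genes in the same imprinted domain did not all move with them. Sgce, which encodes epsilon-sarcoglycan and is transcribed away from Peg10, had 1.22, 1.14 and 2.17 FPKM in KI cultures, against 5.24, 3.64 and 5.33 FPKM in WT cultures (log2 change -1.20 ± 0.23, limma adjusted p = 0.00646). Zim1, a maternally expressed zinc finger gene of the Peg3 domain, had 0.0711, 0.500 and 0.250 FPKM in KI cultures, against 3.11, 3.79 and 1.72 FPKM in WT cultures (log2 change -1.58 ± 0.27, limma adjusted p = 0.00432). Calcr, the maternally expressed calcitonin receptor gene of the Peg10 domain, was low in all cultures. It had 1.81, 1.98 and 1.98 FPKM in KI cultures, against 0.617, 0.183 and 0.742 FPKM in WT cultures (log2 change 0.97 ± 0.22, limma adjusted p = 0.0131, and 0.0251 with no filter). Ppp1r9a, the neurabin gene of the same domain, did not pass the test (log2 change 0.07). H19, the noncoding RNA that shares its enhancers with Igf2, had 0.874, 1.06 and 1.13 FPKM in KI cultures, against 6.23, 8.49 and 0.531 FPKM in WT cultures. The third WT culture lay below all KI cultures for H19, so the groups overlapped, and the change did not pass the test (log2 change -1.22 ± 0.61, limma adjusted p = 0.16).

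Phlda2, and Snrpn and Magel2 of the Snrpn domain, were higher in the KI cultures. Phlda2 had 156, 136 and 156 FPKM in KI cultures, against 90.1, 98.6 and 116 FPKM in WT cultures (log2 change 0.56 ± 0.13, limma adjusted p = 0.0137). Snrpn, which encodes a core protein of spliceosomal particles, had 22.8, 23.2 and 24.2 FPKM in KI cultures, against 8.30, 11.6 and 14.8 FPKM in WT cultures (log2 change 0.99 ± 0.20, limma adjusted p = 0.00802). Neither gene's groups overlapped. Magel2, a MAGE family gene of the same domain, had 10.6, 13.7 and 17.2 FPKM in KI cultures, against 3.39, 3.90 and 8.89 FPKM in WT cultures (log2 change 1.29 ± 0.32, limma adjusted p = 0.0187). Its neighbours Mkrn3 (0.52, limma adjusted p = 0.0654), Ndn (-0.34, limma adjusted p = 0.176) and Ube3a (-0.21, limma adjusted p = 0.366) did not pass the test, the values being log2 changes. Mirg, the maternally expressed microRNA host gene of the Dlk1 domain, had 15.1, 14.5 and 11.4 FPKM in KI cultures, against 8.92, 8.06 and 9.96 FPKM in WT cultures (log2 change 0.55 ± 0.16, limma adjusted p = 0.0319). The other 4 genes of that domain, Dlk1, Meg3, Rian and Rtl1, had log2 changes of -0.03 to 0.48 and none passed the test. The call of Magel2 was lost in 5 of 10 alternative settings and that of Mirg in 6 of 10.

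Smaller decreases were measured for Impact and Gnas. Impact, which encodes an inhibitor of the stress kinase GCN2, had 9.25, 8.61 and 14.2 FPKM in KI cultures, against 20.5, 17.7 and 19.0 FPKM in WT cultures (log2 change -0.81 ± 0.19, limma adjusted p = 0.0167). Gnas, the gene of the stimulatory G protein subunit, had 171, 150 and 142 FPKM in KI cultures, against 222, 258 and 193 FPKM in WT cultures (log2 change -0.53 ± 0.14, limma adjusted p = 0.0217). The groups of both genes were apart, but the call of Impact was lost in 4 of 10 alternative settings and that of Gnas in 5 of 10. Igf2r, the receptor that clears IGF2 (log2 change -0.49, limma adjusted p = 0.0501), and Mest, an alpha/beta hydrolase-fold gene (log2 change -1.10, limma adjusted p = 0.0611), were close to the threshold. Mest had 78.0, 44.9 and 61.3 FPKM in KI cultures, against 149, 210 and 69.2 FPKM in WT cultures, and the third WT culture was again the lowest. Without that culture Mest passed the test (log2 change -1.55, limma adjusted p = 0.00719), as did Igf2r (-0.60, limma adjusted p = 0.0354). Slc38a4, an amino acid transporter gene, was nearly level at 24.0, 23.2 and 25 FPKM in KI cultures and 24.6, 26.6 and 22.2 FPKM in WT cultures, with a 95% confidence interval of -0.30 to 0.27 for its log2 change. The growth restraint genes Cdkn1c (log2 change 0.34, limma adjusted p = 0.107) and Grb10 (-0.18), the trophoblast gene Ascl2 (0.49, limma adjusted p = 0.0915), the splicing factor-related gene Zrsr1 and Peg12, a gene of the Snrpn domain, did not pass the test. Airn, Asb4, Slc22a18 and Usp29 were too low in the cultures to be tested. Of these Airn had 0.0794, 0.0776 and 0.231 FPKM in KI cultures, against 1.37, 1.06 and 0.685 FPKM in WT cultures, with no overlap. Of all 31 genes tested, 10 were lower and 7 higher with no overlap between the groups. Of all genes tested, 24% were lower and 24.4% higher without overlap, 48.4% in all.

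**Figure D2:**
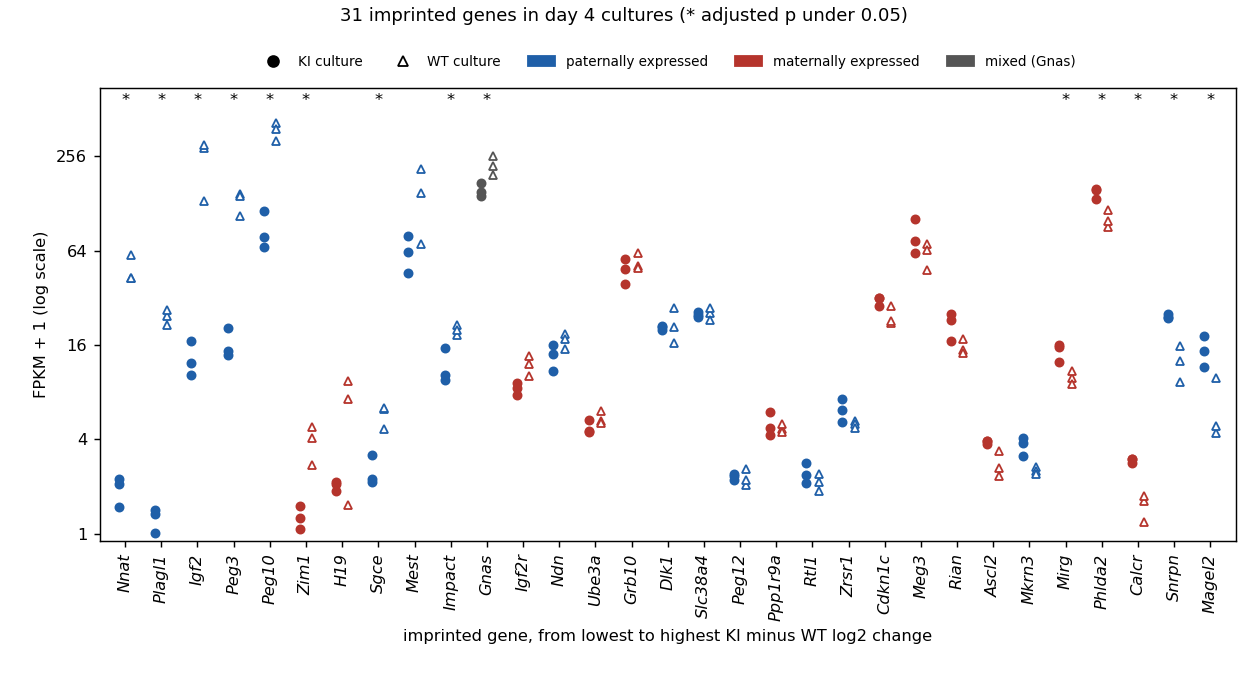
FPKM + 1 on a log scale for 31 imprinted genes in the 3 KI cultures (filled circles) and the 3 WT cultures (open triangles), with genes ordered by log2 change and coloured by parental expression. Asterisks mark adjusted p-values below 0.05, on 9 genes that were lower and 5 that were higher in KI cultures, and the 8 lowest of the asterisked genes include 7 paternally expressed ones.

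Genes that write, read or protect DNA methylation were also measured in the cultures. Of 16 tested genes of this list, 6 were higher in KI cultures and 0 were lower. Of all genes tested in the cultures, 16.2% were higher and 16.2% lower, which applies to each count of this paragraph. Dnmt3b is also on the epiblast list below. The de novo methyltransferase gene Dnmt3b averaged 206 FPKM in KI cultures (range 182.5 to 223), against 30.6 FPKM in WT cultures (range 27.2 to 35.6; log2 change 2.72 ± 0.14, limma adjusted p = 7.57e-05). Dnmt3l rose by a log2 change of 1.86, Dnmt3a by 1.80 and the dioxygenase gene Tet1 by 1.00. The imprint protectors Zfp57 (log2 change -0.12), Trim28 (0.23) and Zfp445 (0.33), and the maintenance genes Dnmt1 (0.05) and Uhrf1 (-0.01), did not pass the test. Of 10 tested genes of the insulin-like growth factor pathway outside the imprinted group, 7 were lower and 0 higher, among them the binding protein gene Igfbp3 (log2 change -2.54), the receptor substrate genes Irs1 (-1.95) and Irs2 (-1.63) and the RNA-binding protein gene Igf2bp3 (-1.76). Of 17 tested genes on a list of further imprinted genes, 5 were lower, including Zdbf2 (-1.62) and H13 (-1.35), and 2 were higher, Mcts2 (1.70) and Inpp5f (1.04).

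Markers of cell state differed between the same cultures, in which 16.2% of all genes tested were higher and 16.2% lower. The primitive streak list summed to 104 to 124 FPKM in KI cultures, against 307 to 474 FPKM in WT cultures, with 5 of 8 genes lower and 1 higher. The nascent mesoderm list summed to 39.4 to 54.7 FPKM in KI cultures, against 62.8 to 111 FPKM in WT cultures, with Msgn1 at 0 in every KI culture. The epiblast list summed to 1628 to 1878 FPKM in KI cultures, against 593 to 787 FPKM in WT cultures, with 7 of 8 genes higher. The list of extraembryonic ectoderm and trophoblast genes summed to 184 to 227 FPKM in KI cultures, against 605 to 1122 FPKM in WT cultures. Its keratin genes Krt8 (97.5 to 128 FPKM in KI cultures, against 359 to 618 FPKM in WT cultures) and Krt18 (74.5 to 97 FPKM in KI cultures, against 234 to 482 FPKM in WT cultures) made up most of that sum, while the trophoblast markers Tpbpa and Prl3d1 were at 0 in all cultures. The visceral endoderm list was near 0, at 1.5 to 2.69 FPKM in KI cultures and 0.742 to 1.25 FPKM in WT cultures. The part of these cell states in the values of the imprinted genes was not tested. In bulk RNA, fewer cells of a type and less RNA per cell cannot be told apart.

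Promoter windows are shown for Nnat, Plagl1 and Peg3, 3 genes with large decreases in the cultures and a single window in RefSeq, and for Phlda2, which had the widest range of levels in the sections. Each window runs 5′ to 3′ on the gene's strand from 250 bases before to 50 bases after the transcription start in RefSeq's GRCm38.p6 annotation. Capitals mark CpG, the dinucleotide that carries DNA methylation.
Nnat: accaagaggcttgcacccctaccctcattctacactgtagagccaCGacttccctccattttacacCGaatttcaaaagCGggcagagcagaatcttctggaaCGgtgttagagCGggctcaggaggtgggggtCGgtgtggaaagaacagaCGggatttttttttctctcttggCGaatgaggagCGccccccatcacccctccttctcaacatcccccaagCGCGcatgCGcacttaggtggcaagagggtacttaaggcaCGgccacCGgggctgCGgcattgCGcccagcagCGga
Plagl1: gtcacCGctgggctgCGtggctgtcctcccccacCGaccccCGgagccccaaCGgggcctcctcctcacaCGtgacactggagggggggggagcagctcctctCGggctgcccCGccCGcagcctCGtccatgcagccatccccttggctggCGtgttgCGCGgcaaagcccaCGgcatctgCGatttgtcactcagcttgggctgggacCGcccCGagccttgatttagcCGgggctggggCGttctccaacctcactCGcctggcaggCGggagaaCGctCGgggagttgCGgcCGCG
Peg3: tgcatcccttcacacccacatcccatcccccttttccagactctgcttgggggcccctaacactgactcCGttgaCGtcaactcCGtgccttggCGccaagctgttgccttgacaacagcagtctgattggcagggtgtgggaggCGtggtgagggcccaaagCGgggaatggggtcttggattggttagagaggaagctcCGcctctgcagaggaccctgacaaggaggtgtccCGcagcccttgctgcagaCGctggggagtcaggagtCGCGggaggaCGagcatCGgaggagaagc
Phlda2: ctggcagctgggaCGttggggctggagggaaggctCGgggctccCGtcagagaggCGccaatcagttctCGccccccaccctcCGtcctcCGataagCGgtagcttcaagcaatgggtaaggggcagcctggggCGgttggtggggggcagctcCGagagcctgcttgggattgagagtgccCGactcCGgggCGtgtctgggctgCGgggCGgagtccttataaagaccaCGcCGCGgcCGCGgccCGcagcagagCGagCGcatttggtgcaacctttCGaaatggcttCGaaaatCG
The windows are chr2:157559828-157560127 on the plus strand for Nnat, chr10:13090582-13090881 on the plus strand for Plagl1, chr7:6730370-6730669 on the minus strand for Peg3 and chr7:143502475-143502774 on the minus strand for Phlda2. They held 17 CpG for Nnat, 26 for Plagl1, 13 for Peg3 and 26 for Phlda2, against a median of 7 over all 32851 windows and of 10.5 over the 48 windows of the 30 imprinted genes that had one. The Peg3 window is shared in part with Usp29, a ubiquitin peptidase-like gene that starts 164 bases away on the other strand, so that 263 bases belong to both windows. Usp29 had at most 0.398 FPKM in any culture and 1.56 FPKM in any section. The letters TGCCGC, the core of the ZFP57 motif, were searched on both strands and occurred in 20.8% of the windows of imprinted genes, in 9 genes, and in 11.6% of all windows. They were present on the minus-strand reading of the Nnat and Plagl1 windows and not in those of Peg3 and Phlda2. Mest windows that start at 30737800 and 30737803 hold the same matches and were both counted. The motif contains a CpG, of which the windows of imprinted genes had the higher median. No methylation was measured, and these matches describe the sequence only.

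In the embryo, 5 imprinted genes were higher in mesoderm than in the primitive streak, namely Phlda2, H19, Igf2, Mest and Asb4, and Snrpn and Meg3 were lower. The comparison used 7 pairs of sections of the same genotype and layer number, 4 from Evx1as-/- and 3 from Evx1as+/- embryos, in a limma fit with the pair as a block. Of 9146 genes tested 0.579% were higher and 8.04% were lower, beside 5 higher and 2 lower of the 24 tested members. The members were chosen with earlier results of these data known, so these counts are not read as support. The median log2 change was 0.00 over the members and -0.34 over all genes. Scaling by median ratios removed that shift, and then Phlda2, H19, Mest and Asb4 passed the test as higher (log2 changes 1.95, 2.51, 1.98 and 1.43), Igf2 did not (2.36, limma adjusted p = 0.0526), and no member passed as lower. Of 18 alternative fits, the call held in 17 for Phlda2, 13 for Mest, 11 for Igf2, 10 for H19 and 9 for Asb4. It held in 5 for Snrpn and 2 for Meg3.

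Phlda2 was higher in mesoderm in 7 of 7 pairs. In Evx1as-/- embryos it had 62.7, 105, 450 and 1341 FPKM in mesoderm of layers 5, 7, 9 and 11, against 13.2, 30.7, 206 and 352 FPKM in streak of the same layers. In Evx1as+/- embryos it had 168, 1171 and 1340 FPKM in mesoderm of layers 7, 9 and 11, against 93.5, 406 and 581 FPKM in streak. The regions overlapped over all layers but not within any layer of 1 genotype, and the log2 change was 1.5 ± 0.18 (SE, limma adjusted p = 0.00132). This call held in every fit that left out 1 of the paired sections and was lost without the pair block (limma adjusted p = 0.26).

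Igf2 and H19 are neighbours on chromosome 7, at chr7:142650766-142666816 and chr7:142575558-142578120 in mm10, and both were higher in mesoderm. Igf2 in Evx1as-/- embryos had 1.65, 3.19, 7.36 and 14.3 FPKM in mesoderm of layers 5, 7, 9 and 11, against 0.708, 0, 1.51 and 7.53 FPKM in streak. In Evx1as+/- embryos it had 3.12, 24.5 and 33.3 FPKM in mesoderm of layers 7, 9 and 11, against 0.623, 1.36 and 0.539 FPKM in streak. Igf2 was thus higher in mesoderm in 7 of 7 pairs (log2 change 2.08 ± 0.42, SE, limma adjusted p = 0.0176). H19 in Evx1as-/- embryos had 9.61, 13.7, 60.9 and 35.5 FPKM in mesoderm of layers 5, 7, 9 and 11, against 0.426, 1.44, 6.60 and 83.5 FPKM in streak. In Evx1as+/- embryos it had 16.1, 32 and 21.4 FPKM in mesoderm of layers 7, 9 and 11, against 3.27, 3.27 and 2.25 FPKM in streak. The Evx1as-/- streak section of layer 11 was the exception, with the highest H19 value of all sections, and the other 6 pairs were higher in mesoderm (log2 change 2.15 ± 0.44, SE, limma adjusted p = 0.0184).

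The streak and mesoderm sections with the most visceral endoderm RNA also had high H19. The visceral endoderm list of 12 genes summed to 658 FPKM in the Evx1as-/- streak section of layer 11 and to 407 FPKM in the Evx1as-/- mesoderm section of layer 9, and to at most 70.2 FPKM in the other streak and mesoderm sections. H19 was also high in Evx1as-/- mesoderm of layer 11, where the list summed to 7.84 FPKM. The same held for Evx1as+/- mesoderm of layers 7, 9 and 11, at 4.01, 11.1 and 3.37 FPKM. The 70.2 FPKM belonged to the Evx1as-/- streak section of layer 9, where H19 was lower than in these mesoderm sections. Without the Evx1as-/- streak section of layer 11 the log2 change of H19 was 2.71 (limma adjusted p = 0.000549). Without the Evx1as-/- mesoderm section of layer 9 it was 2.00 (limma adjusted p = 0.0629). The call of H19 was also lost without the Evx1as-/- streak section of layer 7 (limma adjusted p = 0.0735) or 9 (limma adjusted p = 0.0688), the Evx1as-/- mesoderm section of layer 7 (limma adjusted p = 0.0613), the Evx1as+/- streak section of layer 9 (limma adjusted p = 0.0523) and the Evx1as+/- mesoderm section of layer 11 (limma adjusted p = 0.0516). In all, 7 members passed with all pairs, but Phlda2 alone passed without the Evx1as-/- mesoderm section of layer 9 or the Evx1as-/- streak section of layer 7 or 9. The count was 2 without the Evx1as-/- mesoderm section of layer 7, 3 without that of layer 11, and 4 without the Evx1as-/- streak section of layer 11 or the Evx1as+/- one of layer 9. The trophoblast list summed to 22.3 to 51.7 FPKM in Evx1as-/- and 24.4 to 31 FPKM in Evx1as+/- mesoderm, against 4.12 to 96.6 FPKM in Evx1as-/- and 6.24 to 151 FPKM in Evx1as+/- streak. The 3 tested genes of this list were higher in mesoderm, namely Krt8, Krt18 and Hand1, a gene also on the nascent mesoderm list. Elf5, which defines extraembryonic ectoderm, was at 0 in every streak and mesoderm section. By contrast, Tfap2c and Prl3d1 of the same list averaged 1 FPKM or more over all streak sections, layer 1 included, but not over the paired sections. The part of these cells in the imprinted gene values was not tested.

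Mest and Asb4 completed the genes that were higher in mesoderm, both in 7 of 7 pairs. Mest had 16.9, 7.54, 10.9 and 30.3 FPKM in Evx1as-/- mesoderm of layers 5, 7, 9 and 11, against 1.38, 4.82, 1.47 and 6.47 FPKM in streak. In Evx1as+/- embryos it had 10.6, 16.5 and 15.8 FPKM in mesoderm of layers 7, 9 and 11, against 5.84, 11.2 and 2.45 FPKM in streak (log2 change 1.62 ± 0.32, limma adjusted p = 0.0165). Asb4 had 5.83, 8.97, 4.76 and 6.77 FPKM in Evx1as-/- mesoderm, against 2.40, 2.38, 0.420 and 2.75 FPKM in streak, and 2.33, 1.94 and 1.95 FPKM in Evx1as+/- mesoderm, against 0.159, 1.64 and 0.644 FPKM in streak (log2 change 1.17 ± 0.26, limma adjusted p = 0.0243). Asb4 was therefore higher in each Evx1as-/- mesoderm section than in each Evx1as+/- one. Cdkn1c, a cyclin-dependent kinase inhibitor gene, was higher in 6 of 7 pairs and narrowly missed the threshold (log2 change 1.39 ± 0.40, limma adjusted p = 0.0522).

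Snrpn was lower in mesoderm in 7 of 7 pairs and Meg3, a long noncoding RNA, in 6 of 7. Snrpn had 4.88, 3.43, 3.85 and 2.56 FPKM in Evx1as-/- mesoderm, against 8.45, 8.55, 8.93 and 6.43 FPKM in streak. It had 2.63, 1.09 and 0.268 FPKM in Evx1as+/- mesoderm, against 2.98, 8.76 and 5.16 FPKM in streak (log2 change -1.22 ± 0.29, limma adjusted p = 0.0268). Meg3 had 5.54, 4.00, 7.63 and 3.60 FPKM in Evx1as-/- mesoderm, against 11.8, 8.01, 16.4 and 6.98 FPKM in streak, and 3.27, 6.57 and 2.98 FPKM in Evx1as+/- mesoderm, against 23.3, 15.7 and 2.44 FPKM in streak (log2 change -1.01 ± 0.28, limma adjusted p = 0.0477). Both decreases were larger than the median of all genes, but neither passed after scaling (Snrpn -0.90, limma adjusted p = 0.242; Meg3 -0.61, limma adjusted p = 0.361). Nnat (0.10), Peg3 (-0.28), Gnas (-0.12), Grb10 (0.00) and Slc38a4 (0.01) had log2 changes near 0 and did not pass the test. Of the other lists, Dnmt3b (-1.58), Igfbp2 (-1.35) and Mcts2 (-1.0) were lower in mesoderm and no gene of those 3 lists was higher.

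**Figure D3:**
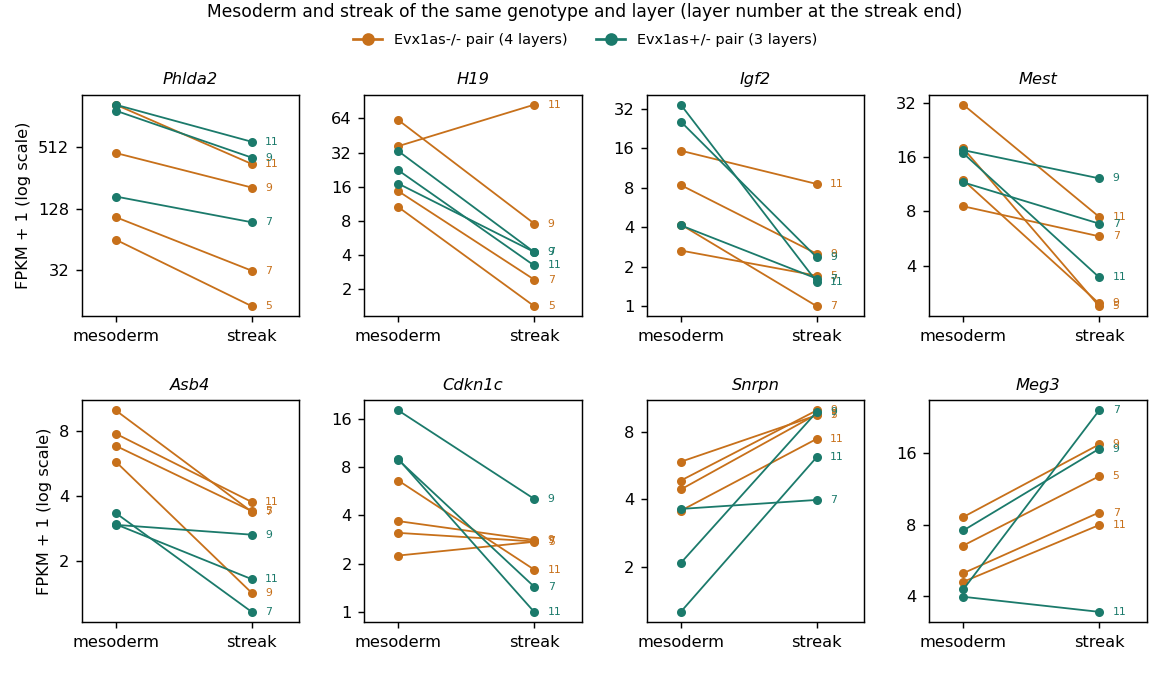
FPKM + 1 on a log scale in mesoderm (left) and primitive streak (right) for 8 imprinted genes, each line joining sections of the same genotype and layer, whose number is printed at the streak end. Lines for Phlda2, Igf2, Mest and Asb4 run down to the streak in all 7 pairs, and those of Snrpn run up in all 7.

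Phlda2 rose with layer number in the streak and in the mesoderm. It was the only gene called of 9501 tested in the streak and of 8695 in the mesoderm, which does not show that other genes were level across layers. In the fit over layers 3 to 11 with genotype as a term, its log2 level rose by 0.62 ± 0.08 per layer in 9 streak sections (SE, limma adjusted p = 0.0186), where 0.0105% of all genes were called. In 8 mesoderm sections it rose by 0.78 ± 0.07 per layer (limma adjusted p = 0.00401), where 0.0115% of all genes were called. Evx1as-/- streak sections of layers 1, 5, 7, 9 and 11 had 24.1, 13.2, 30.7, 206 and 352 FPKM. Evx1as+/- streak sections of layers 1, 3, 5, 7, 9 and 11 had 4.27, 35.1, 87.3, 93.5, 406 and 581 FPKM. Values thus climbed steeply from layer 7 onwards in both genotypes, and both anterior sections were low, at 5.40 FPKM in Evx1as-/- and 5.55 FPKM in Evx1as+/- embryos. In Evx1as-/- mesoderm the levels ran from 13.9 FPKM in layer 3 to 1341 FPKM in layer 11.

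Among visceral endoderm genes, Ttr had a slope of like size in the streak, at 0.60 per layer (limma unadjusted p = 0.00018, adjusted p = 0.402). Apoa1 rose by 0.71 per layer there (limma unadjusted p = 0.00324, adjusted p = 0.589). The other tested genes of the list rose less, with Apom at 0.43, Rbp4 at 0.33, Amn at 0.18 and Apoa2 at 0.15. In the mesoderm the slopes were 0.28 for Ttr, 0.15 for Apom, 0.08 for Rbp4, 0.06 for Apoa1 and -0.42 for Sox17. The sum of their list was highest in the Evx1as-/- streak section of layer 11, at 658 FPKM. Their part in the Phlda2 slope was not tested.

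The layer calls for Phlda2 rested on sections at the ends of the range. In the streak the call was lost without the Evx1as-/- section of layer 5 (slope 0.57, limma adjusted p = 0.137) or layer 11 (0.59, limma adjusted p = 0.219), or without the Evx1as+/- section of layer 3 (0.67, limma adjusted p = 0.14). In the mesoderm it was lost without the Evx1as-/- section of layer 3 (0.76, limma adjusted p = 0.067) or layer 11 (0.77, limma adjusted p = 0.225). Both calls were lost when low genes were not filtered out, and the slopes themselves moved little in all these fits. Igf2 rose by 0.45 per layer in the mesoderm (limma unadjusted p = 0.000237, adjusted p = 0.171), and H19 (0.34), Cdkn1c (0.26) and Snrpn (-0.17) also had unadjusted p-values under 0.05 there, but none passed after adjustment. Hand1 and Bmp4, genes of posterior and extraembryonic mesoderm, were high in the Evx1as-/- mesoderm section of layer 11, at 30 and 7.98 FPKM, and Hand1 was at 13.0 FPKM in the Evx1as+/- one. Other tested genes of the nascent mesoderm and the extraembryonic mesoderm and blood lists differed in direction. Mesoderm slopes were positive for Kdr (0.32), Mesp1 (0.22), Pdgfra (0.15) and Snai1 (0.12), and negative for Tbx6 (-0.004), Lefty2 (-0.16) and Hba-a1 (-0.26). The part of such cells in the Phlda2 and Igf2 slopes was not tested.

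**Figure D4:**
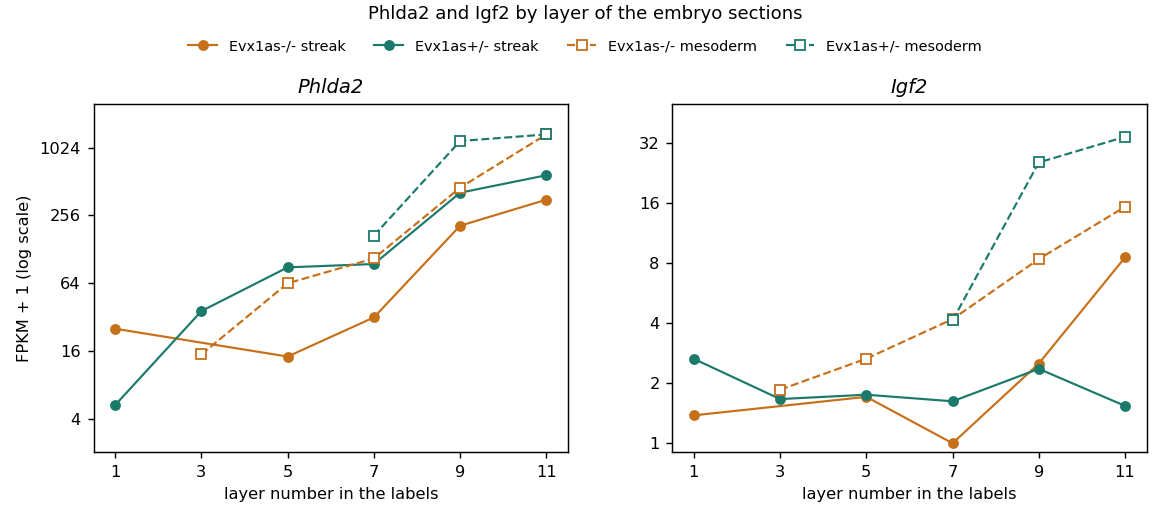
FPKM + 1 on a log scale against layer number for Phlda2 (left) and Igf2 (right), with Evx1as-/- sections in orange, Evx1as+/- sections in green, streak as filled circles on solid lines and mesoderm as open squares on dashed lines. Phlda2 reached 352 to 1341 FPKM in layer 11 of the 4 series, while Igf2 stayed at 0.539 FPKM in the Evx1as+/- streak of that layer.

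Asb4 was higher in layer 1 of the streak than in the other layers. Layer 1 was compared because earlier results of these data had set it apart, so the p-values here are not those of a question set beforehand. Asb4 had 16.6 FPKM in the Evx1as-/- and 26.6 FPKM in the Evx1as+/- section of layer 1, against 0.159 to 4.59 FPKM in the other 9 streak sections (log2 change 3.12 ± 0.54, SE, limma adjusted p = 0.00581). It was the only one of 22 tested members past the threshold, in a comparison where 2.19% of 9932 genes were higher in layer 1 and 0.141% lower. The call was lost without the Evx1as+/- section of layer 1 (2.66, limma adjusted p = 0.646) and with a pseudocount of 0.1 (3.88, limma adjusted p = 0.118). Cdkn1c, at 5.42 FPKM in the Evx1as-/- and 13.5 FPKM in the Evx1as+/- layer 1 section, against at most 4.06 FPKM elsewhere in the streak, did not pass (log2 change 2.13, limma adjusted p = 0.0589). Nnat had 77.9 FPKM in the Evx1as-/- and 208 FPKM in the Evx1as+/- section, against at most 75.3 FPKM elsewhere in the streak, and did not pass either (1.89, limma adjusted p = 0.294). These 3 genes were the members whose layer 1 values did not overlap the rest, of 22, and 11.7% of all genes tested were higher in layer 1 without overlap. Other cell markers moved with layer 1: Krt8 had 53.2 and 79.5 FPKM in its Evx1as-/- and Evx1as+/- sections, against 2.27 to 12.7 FPKM in the other streak sections, and Sox17, an endoderm gene, had 6.03 and 13.4 FPKM, against 0 to 1.55 FPKM. The extraembryonic mesoderm and blood list, mostly the globin gene Hba-a1, summed to 95.4 FPKM in the Evx1as-/- and 2497 FPKM in the Evx1as+/- section of layer 1, against 5.05 to 175 FPKM in the other streak sections. The decidua list summed to 3.90 and 10.7 FPKM there, against 0 to 3.72 FPKM. The part of all these cells in the Asb4 value was not tested.

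In the anterior epiblast sections, 1 of each genotype, none of 23 tested members differed from the 11 streak sections past the threshold in the limma fit, where 0.406% of all genes tested did. Peg3 came closest, at 3.69 FPKM in the Evx1as-/- and 8.77 FPKM in the Evx1as+/- anterior section, against 11.1 to 36.1 FPKM in the streak (log2 change -1.72 ± 0.41, limma adjusted p = 0.109). It passed without the Evx1as+/- streak section of layer 11 (-1.84, limma adjusted p = 0.00763). Magel2, at 2.15 FPKM in the Evx1as-/- and 4.40 FPKM in the Evx1as+/- anterior section, lay above every streak section (0 to 1.85 FPKM), as did Mirg, at 3.19 and 4.52 FPKM against at most 2.52 FPKM. Magel2 averaged 0.648 FPKM over the streak and entered this comparison through the anterior values, so its place in the counts that follow supports nothing. Together with Peg3 these were the members without overlap, 3 of 23, against 3.56% of all genes tested. Unadjusted p-values under 0.05 were found for 5 of 23 members, beside 974 of all 9854 genes tested. The 5 were Peg3, Magel2 (log2 change 1.42), Mirg (1.14), Phlda2 (-3.47) and Ube3a (-0.92). Meg3 had its highest section value in the Evx1as+/- anterior section, at 40.1 FPKM, and 17.4 FPKM in the Evx1as-/- one.

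Between genotypes, no imprinted gene passed the test in the streak, in the mesoderm or in both regions together. In the streak, 22 members were tested between 5 Evx1as-/- and 6 Evx1as+/- sections in a limma fit that called 0.0201% of all genes. Against 1012 of all 9932 genes tested, none of these members had an unadjusted p under 0.05. Their log2 changes ran from -0.81 for Phlda2 (95% confidence interval -1.92 to 0.30) to 0.93 for Rian (-0.22 to 2.08), so changes of more than 2-fold in either direction were within the intervals of several genes. The median over all genes tested was 0.25 in this fit and 0.04 after median-ratio scaling.

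In the mesoderm, 22 members were tested between 5 Evx1as-/- and 3 Evx1as+/- sections, in a limma fit that called 0.196% of all genes. Of these members, 4 (Asb4, Cdkn1c, Snrpn and Rian) had an unadjusted p under 0.05, beside 1344 of all 8695 genes tested. The shares were close, so the count of members is not read as a result. Asb4, with 10.4, 5.83, 8.97, 4.76 and 6.77 FPKM in Evx1as-/- mesoderm of layers 3, 5, 7, 9 and 11, against 2.33, 1.94 and 1.95 FPKM in Evx1as+/- mesoderm of layers 7, 9 and 11, had a log2 change of 1.27 ± 0.34 (limma adjusted p = 0.137). Cdkn1c, with 0, 1.24, 2.11, 2.68 and 5.58 FPKM in Evx1as-/- mesoderm, against 7.85, 17.0 and 7.96 FPKM in Evx1as+/- mesoderm, had a log2 change of -1.50 ± 0.42 (limma adjusted p = 0.151). For both genes, and for Rian (log2 change 1.01), the genotypes did not overlap, 3 of 22 members against 9.66% of all genes tested. Layers 3 and 5 were represented in Evx1as-/- mesoderm alone.

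With both regions in 1 fit, which called 1.25% of all genes, Snrpn came closest among 22 members (log2 change 0.75 ± 0.24, limma adjusted p = 0.0883). It was higher in Evx1as-/- than in Evx1as+/- sections in 7 of 8 layer-matched comparisons. Rian, a snoRNA host transcript, had a log2 change of 0.96 ± 0.37 (limma adjusted p = 0.154) and Phlda2 one of -0.89 ± 0.38 (limma adjusted p = 0.199). Snrpn passed without the Evx1as+/- streak section of layer 9 (0.85, limma adjusted p = 0.0445), and Phlda2 passed without the Evx1as-/- streak section of layer 1 (-1.21, limma adjusted p = 0.04996). When the genotypes were compared in the size of their difference between mesoderm and streak, none of 24 members passed, against 0.0109% of all genes tested. Unadjusted p-values under 0.05 were found there for Slc38a4 (interaction 1.78 on the log2 scale), Cdkn1c (-2.01) and Igf2 (-1.77), beside 562 of all 9146 genes tested. A p-value above the threshold does not show that the genotypes were alike, and the intervals in the plot of genotype changes give the sizes that remained possible.

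**Figure D5:**
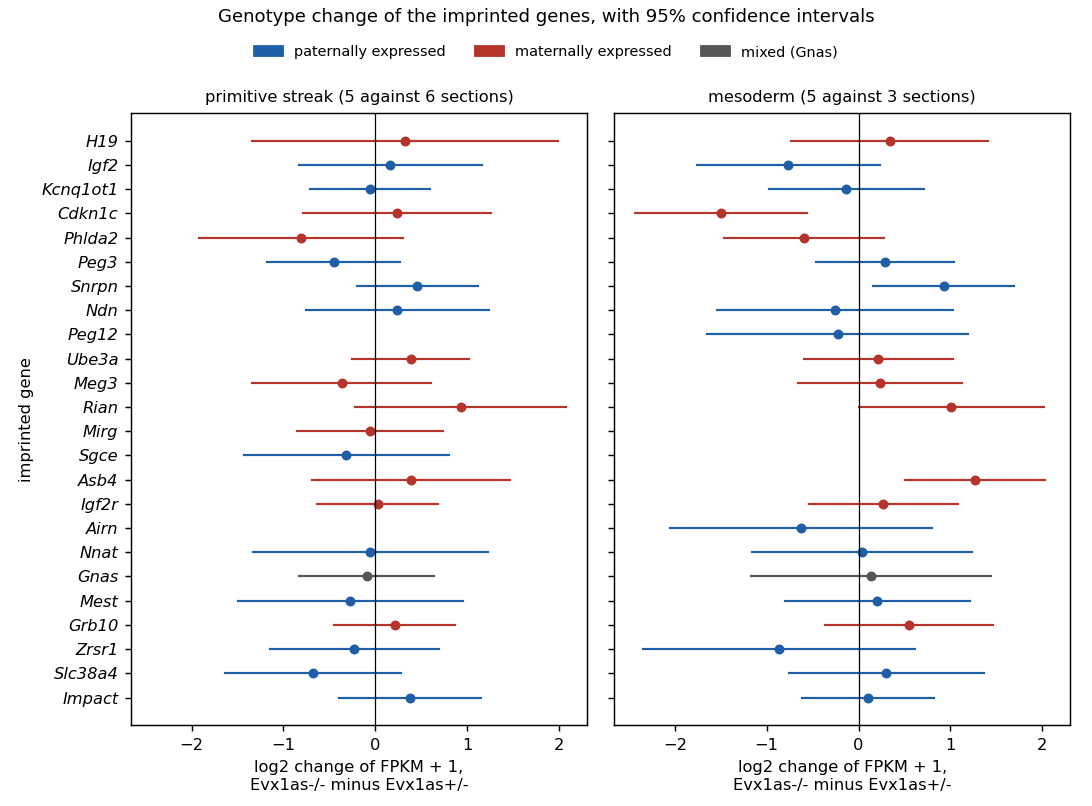
Log2 change of FPKM + 1, Evx1as-/- minus Evx1as+/-, with 95% confidence intervals for the imprinted genes tested in the primitive streak (left) and the mesoderm (right), coloured by parental expression. All streak intervals include 0, and those of Cdkn1c, Asb4, Snrpn and Rian in the mesoderm do not, before adjustment for the number of genes tested.

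The 2 materials gave different orders of level. By group mean the 5 highest imprinted genes were Gnas, Phlda2, Peg10, Meg3 and Mest in KI cultures, and Peg10, Igf2, Gnas, Mest and Peg3 in WT cultures. In the streak they were Phlda2, Nnat, H19, Peg3 and Grb10 in Evx1as-/- and Phlda2, Nnat, Peg3, Meg3 and Gnas in Evx1as+/- embryos. The H19 mean in Evx1as-/- streak included 83.5 FPKM in layer 11, the section whose visceral endoderm list summed to 658 FPKM. Evx1as-/- streak sections of layers 5, 7 and 9 had at most 6.60 FPKM of H19. H19 did not pass between genotypes in the streak (log2 change 0.33, limma adjusted p = 0.898). In the mesoderm Phlda2, Nnat and H19 led in both genotypes. Airn, the antisense transcript that silences Igf2r, was at 0 in 5 of 6 Evx1as+/- and 3 of 5 Evx1as-/- streak sections and had 0 to 5.50 FPKM in mesoderm sections. Airn and Igf2r overlap on opposite strands, as do other members and their neighbours, and whether strand was used in counting is not stated, so reads of overlapping genes may not have been told apart. The lowest members in the sections, besides those at or near 0 above, were Slc22a18 (at most 0.861 FPKM), Calcr (1.03), Rtl1 (1.2), Zim1 (1.37) and Ppp1r9a (1.43), and they were too low for the tests in most comparisons.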

How the data were processed

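Per the labels' protocols, libraries were made with a stranded mRNA kit, and per the submitters' processing notes reads were handled with CASAVA and TopHat2 2.0.11 and a mouse build mm10. Gene positions in the section tables are those of mm10; those in the culture tables are not, so no coordinates were taken from the latter. The authors deposited 1 table of FPKM per library, in the column layout of Cufflinks, with no counts, so depth is unknown and no count model was used. Whether counting used strand is not given in the sources used here.

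Rows with the same gene ID were summed, and values below 1e-06 were set to 0. Genes averaging 1 FPKM or more in the libraries of a fit were tested with limma 3.58.1 in R 4.3.3 (moderated, with a trend) on log2(FPKM + 1), with Benjamini-Hochberg adjustment over all genes tested and a threshold of 0.05. There were 10 comparisons; mesoderm and streak were compared in 7 pairs. All tests are two-sided. The fits were tested on simulated data, with 100 genes given a change of 2 log2 units. The culture fit recovered 84 of them, mesoderm against streak 80, genotype in both regions 77 and genotype in the streak 67. The anterior fit recovered 25, the layer 1 fit 23 and the genotype fit in the mesoderm 15. The interaction and both layer trends recovered 0. False calls numbered 0 to 8 per fit, with 1 in the mesoderm trend. Alternatives were a pseudocount of 0.1, no filter, median-ratio scaling, each library left out, and replicate or layer blocks. All 36 members were accounted for, and those past the threshold were named. The members, the gene lists and the layer 1 comparison were chosen with earlier results of these data known. Replicate numbers of the cultures did not pair them, with correlations of same-numbered cultures of -0.117, -0.0535 and -0.0512. Posterior sections were not analysed here. Promoter windows and motif counts were computed from RefSeq, GRCm38.p6. Tables and figures were made with Python 3.11.15, pandas 2.3.3 and matplotlib 3.10.9.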

Additional observations from a re-analysis of the deposited data

Results flagged for a closer look

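In groups of 4 to 10 sections, a value of an imprinted gene was listed when its gap to the nearest other section was large for the range of the group (Dixon's criterion at 95%). Of 64 combinations of gene and group 7 met this, and chance alone flags about 1 in 20. In Evx1as+/- streak, Ndn, a MAGE family gene, had 0.136 FPKM in layer 9, against 4.07 to 7.37 FPKM in the other 5 sections. The Evx1as+/- streak section of layer 11 gave 3 of the 7 values, and this library stood apart as a whole, with 6806 genes at 1 FPKM or more, the fewest of the 24 sections, and 14 of 36 members at 0. The Evx1as+/- mesoderm section of layer 11 was next, with 7025 genes. The streak section was low for the noncoding RNA Kcnq1ot1, at 0.278 FPKM against 1.17 to 1.69 FPKM, for Meg3, at 2.44 FPKM against 12.2 to 24.4 FPKM, and for Gnas, at 4.13 FPKM against 12.5 to 20.2 FPKM. In Evx1as-/- mesoderm, layer 3 was low for Nnat, at 12.0 FPKM against 31.1 to 36 FPKM, for Peg3, at 10.1 FPKM against 17.2 to 19.7 FPKM, and for Slc38a4, at 0.908 FPKM against 3.13 to 4.21 FPKM.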

How the results depend on the processing

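Depth is unknown, which leaves the precision of low genes open, and no result reversed its direction under the settings run. For single genes, other settings left 190 calls on their side of the threshold, weakened 23 and strengthened 6, and leaving out 1 library left 479, weakened 65 and strengthened 12. The number of imprinted genes past the threshold moved as follows. In mesoderm against streak, where it was 7, it was 1 with no filter, 4 with median-ratio scaling and 3 with no replicate block (Asb4, Mest and Snrpn). The layer 1 count was 0 with a pseudocount of 0.1, and both layer trend counts were 0 with no filter, where Phlda2 had limma adjusted p = 0.705 in the streak and 0.122 in the mesoderm. With the sections of conflicting labels added by title, 1 member passed between genotypes in the mesoderm (Asb4) and 1 in both regions together (Snrpn), and by cell type label 2 passed in both regions (Snrpn and Rian). The cause was not tested. Leaving out each library gave 10 to 17 members in the cultures, 0 to 0 between genotypes in the streak and in the mesoderm, 0 to 1 in both regions, 1 to 7 in mesoderm against streak, 0 to 1 in the anterior comparison, 0 to 3 in layer 1 and 0 to 1 in each trend. With the replicate block, which the labels do not show to pair the cultures, 4 members were higher and 9 lower in KI cultures, and with the layer as a replicate block 0 members passed in each genotype comparison.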

Other observations

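Labels of 3 sections contradict each other on region or layer, and these sections entered no main comparison. The Evx1as-/- section had 8.52 FPKM of Phlda2, 22.9 FPKM of Snrpn and 0.192 FPKM of H19, and its primitive streak list summed to 401 FPKM. One Evx1as+/- section had 56.0 FPKM of Phlda2, 2.04 FPKM of Snrpn and 11.3 FPKM of H19. The other Evx1as+/- section had 90.4 FPKM of Phlda2, 1.89 FPKM of Snrpn and 9.66 FPKM of H19. Their primitive streak lists summed to 30.1 and 43.0 FPKM. The Evx1as-/- value of Snrpn was the highest of all 24 sections.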
